A study of Mus musculus with 24 samples.

Results

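The acute phase genes described here were Saa3, Saa1, Saa2, Lcn2, Hp, Cp and Ptx3, 7 of the 23347 mouse gene symbols on a 1-colour Agilent array, taken by gene name from the spots that were not controls. They were measured in tumour-associated macrophages (TAM) and in macrophages grown from bone marrow of male C57BL/6 mice aged 10 weeks. TAM post-sepsis came from mice 14 days after sepsis had been induced and TAM naive from mice without sepsis, in both cases by a Percoll gradient and 1 hour of adhesion, and the labels named no tumour line. The cultured cells were adherent marrow progenitors kept for 7 days with fetal bovine serum and 20% supernatant of L929 cells, a mouse fibroblast line whose supernatant supplies the macrophage growth factor M-CSF. M1 cultures were from naive mice and received IFN-gamma at 50 ng/mL with LPS at 10 ng/mL on day 3. M2 cultures were from naive mice and received IL-10 at 20 ng/mL on day 3, per the label. M0 post-sepsis cultures came from mice 14 days after sepsis induction, M0 naive cultures from naive mice, and neither received a polarizing agent. Each group had 4 arrays, but the submitters excluded TAM naive replicate 2 for low RNA amount and quality, so 23 arrays were used. Per the design text, the arrays were the best 4 of 12 TAM samples or the best 4 from 2 marrow experiments per group, so each p-value measures the spread between chosen samples.

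Acute phase proteins are secreted when interleukin-6, interleukin-1 or tumour necrosis factor signals injury or infection, mainly by the liver and for some members also by macrophages, neutrophils and stromal cells. STAT3, C/EBP factors and NF-kappaB are the transcription factors through which these cytokines act on the genes. The serum amyloid A proteins Saa1, Saa2 and Saa3 are small apolipoproteins of high-density lipoprotein, and Saa3 is the mouse form made mainly outside the liver. Lcn2 (lipocalin-2) withholds iron from bacteria by binding their siderophores, Hp (haptoglobin) binds free haemoglobin, and Cp (ceruloplasmin) is a copper-carrying ferroxidase. Ptx3 is a long pentraxin, a soluble pattern recognition molecule that binds microbes and the complement component C1q.

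The promoters of the serum amyloid A genes and Lcn2, which all rose in M1, and of Ptx3, which was not measurable there, are shown first so that they can be compared, from 250 bases before to 30 bases after the transcription start, on the gene's own strand, from RefSeq on GRCm38.p6. Capitals mark matches to a motif of the factors named above: TTGCNNAA for C/EBP on either strand, and the kappaB consensus on either strand.
Saa3: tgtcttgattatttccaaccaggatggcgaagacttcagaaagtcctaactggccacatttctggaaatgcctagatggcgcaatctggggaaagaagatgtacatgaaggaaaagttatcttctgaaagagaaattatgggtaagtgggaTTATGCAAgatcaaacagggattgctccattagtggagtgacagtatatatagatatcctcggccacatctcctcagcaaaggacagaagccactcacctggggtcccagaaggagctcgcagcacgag
Saa1: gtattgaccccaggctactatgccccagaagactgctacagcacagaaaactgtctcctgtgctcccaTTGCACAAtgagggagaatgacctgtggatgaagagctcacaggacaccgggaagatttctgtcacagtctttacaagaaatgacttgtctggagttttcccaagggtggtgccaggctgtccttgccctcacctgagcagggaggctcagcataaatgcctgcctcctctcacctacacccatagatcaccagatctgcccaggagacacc
Saa2: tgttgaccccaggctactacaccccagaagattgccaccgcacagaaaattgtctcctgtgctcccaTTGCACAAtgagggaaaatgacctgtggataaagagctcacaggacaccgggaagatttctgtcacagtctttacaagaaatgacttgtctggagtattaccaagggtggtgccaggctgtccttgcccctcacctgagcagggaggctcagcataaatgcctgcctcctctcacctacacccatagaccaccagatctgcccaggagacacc
Lcn2: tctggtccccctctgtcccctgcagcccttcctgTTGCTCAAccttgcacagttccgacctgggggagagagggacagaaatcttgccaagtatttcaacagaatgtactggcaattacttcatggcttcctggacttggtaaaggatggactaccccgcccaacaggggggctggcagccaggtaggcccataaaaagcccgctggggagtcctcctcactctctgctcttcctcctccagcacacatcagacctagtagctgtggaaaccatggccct
Ptx3: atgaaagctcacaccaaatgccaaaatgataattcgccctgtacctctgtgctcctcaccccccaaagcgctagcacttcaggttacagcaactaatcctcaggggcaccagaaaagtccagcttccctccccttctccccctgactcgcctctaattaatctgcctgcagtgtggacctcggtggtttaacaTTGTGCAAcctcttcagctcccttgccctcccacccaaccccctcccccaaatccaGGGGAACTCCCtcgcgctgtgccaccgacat
These windows lie at chr7:46715647-46715926 (minus strand) for Saa3, chr7:46742951-46743230 (minus) for Saa1, chr7:46751583-46751862 (plus) for Saa2, chr2:32387710-32387989 (minus) for Lcn2 and chr3:66219637-66219916 (plus) for Ptx3.

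The RefSeq table held 7 promoter windows of 250 bases before and 50 after the start for 6 of the 7 genes, all but Hp, with 2 for Cp. TTGCNNAA matched in at least 1 window of each of these 6 genes, against 10.8% of all 32851 windows in the table. Counting bases before the start as negative, the match began at -182 in Saa1 and at -183 in Saa2, both on the sense strand, and at -99 on the other strand in Saa3. The kappaB consensus matched only in Ptx3, at 2 overlapping positions that span the start itself, and 4.51% of all windows held it. The STAT motif TTCNNNGAA, which 8.3% of windows held, matched in none of the 7 windows. A TATA box written as TATAAA and searched on the sense strand was found in 1 Cp window, from -25 to -20, and 8.32% of all windows held one. The Saa1 and Saa2 windows were identical at 287 of 301 aligned positions (95.3%), whereas Saa1 and Saa3 matched at 50.9%, close to the 50.8% of Saa1 and the unrelated Lcn2. These matches describe letters in a window and not binding.

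Each gene had 1 probe, except Cp with 2. On mm9, the build named for the probe annotation, the probes lay at chr7:53970389-53970448 for Saa3, chr7:53996070-53996129 for Saa1, chr7:54009622-54009681 for Saa2, chr2:32240199-32240258 for Lcn2, chr8:112099045-112099104 for Hp and chr3:66029245-66029304 for Ptx3. For Cp the brighter probe, at chr3:19889071-19889130, was used, since the probe at chr3:19907511-19907570 was well above background on 2 of 4 TAM post-sepsis arrays and on no other array used. Saa1 and Saa2 are near-identical neighbours, and how far each probe also captures the other's transcript was not tested. All levels below are log2 of the processed intensity relative to the same array's 75th percentile, so 0 is the intensity at that percentile, and levels are not compared between genes.

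Across the 23 arrays the 75th percentile lay between 236.5 and 693.6 intensity units, and 56.87% to 69.71% of probes were well above background. All 9 macrophage markers were well above background in every group. Their summed level, on the linear scale and relative to the 75th percentile, was 56.5 to 196 in TAM post-sepsis and 193 to 368 in TAM naive, against 1225 to 1410 in M0 naive. All 9 fibroblast markers, Col1a2 among them, were also well above background in TAM, with a summed level of 230 to 1129 in TAM post-sepsis and 219 to 905 in TAM naive, against at most 3.16 in any cultured array. The 10 hepatocyte markers summed to 4.8 to 10.3 in TAM post-sepsis, 5.31 to 7.06 in TAM naive and 4.64 to 12.3 in the cultures. Alb, Apoa1 and Apoh were well above background on none of the 23 arrays, whereas Apoa2, Tat, Cyp2e1 and Serpina1a were on all of them. In RNA from such mixed cells, fewer cells of a type and less RNA per cell cannot be told apart.

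**Figure D1:**
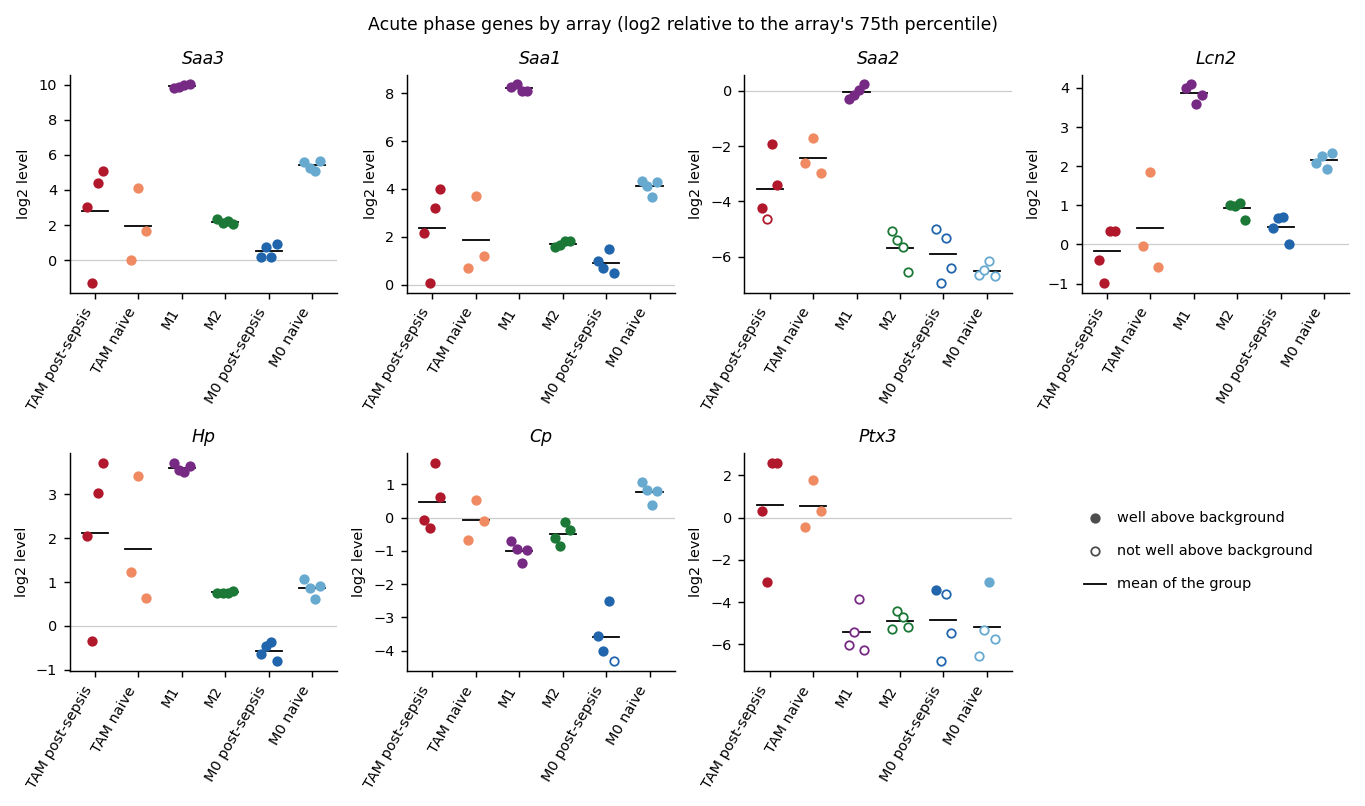
Level of each acute phase gene on each array, as log2 relative to the array's 75th percentile, by group. Filled points are well above background, open points are not, and lines are group means. The 4 M1 arrays lie highest for Saa3, at 9.81 to 10.01, while TAM arrays spread from -1.31 to 5.09.

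The serum amyloid A genes, Hp and Lcn2 were higher in M1 than in M0 naive, and Cp was lower. This comparison asks how the genes respond to IFN-gamma with LPS. Of the 6 genes that could be tested, 5 rose and 1 fell, where 13.1% of the 29532 genes tested rose and 14.7% fell at an adjusted p under 0.05. Here and below, the genes tested include probes without a gene symbol, each counted as a gene. Saa2 entered the test only because it was well above background in M1, so the direction of its call was largely set beforehand. Ptx3 was well above background on none of the 4 M1 arrays and on 1 of the 4 M0 naive arrays and was not tested.

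Saa3 stood at 9.81, 9.87, 10.00 and 10.01 in M1, against 5.58, 5.27, 5.07 and 5.67 in M0 naive. The groups were far apart and each varied by less than 1 unit. The change was 4.53 ± 0.20 (SE, n = 4 each), a 23.1-fold difference (limma adjusted p = 1.83e-10). Saa1 had levels of 8.27, 8.36, 8.09 and 8.09 in M1, against 4.35, 4.11, 3.67 and 4.30 in M0 naive. Again no array of one group reached the other, and Saa1 rose by 4.09 ± 0.22, or 17.1-fold (adjusted p = 1.2e-09). Saa2 reached -0.29, -0.16, 0.03 and 0.23 in M1 and was well above background on all 4 arrays, against -6.66, -6.48, -6.16 and -6.71 in M0 naive, where no array was well above background. Only a bound can therefore be given, and in the main processing Saa2 was at least 22.1-fold higher in M1 (adjusted p = 5.22e-09). Over the alternatives tried, single slides among them, its log2 change ranged from 2.91 to 6.79, and the lowest lies below this bound. The bound sets the M1 mean against, on each dim array, the higher of the probe's own signal and the lowest signal of any probe well above background. This bound and those below hold for the main processing only.

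Among the iron and haem binding proteins, Hp stood at 3.72, 3.56, 3.51 and 3.64 in M1, against 1.07, 0.86, 0.62 and 0.92 in M0 naive. It rose by 2.74 ± 0.15, or 6.68-fold (adjusted p = 1.91e-09). Lcn2 was at 3.99, 4.09, 3.60 and 3.82 in M1, against 2.09, 2.26, 1.92 and 2.33 in M0 naive. It rose by 1.73 ± 0.19, or 3.31-fold (adjusted p = 3.86e-06), the smallest rise of the 5. Cp moved the other way. Its levels were -0.70, -0.95, -1.36 and -0.98 in M1, against 1.08, 0.83, 0.38 and 0.79 in M0 naive, and it fell by 1.77 on the log2 scale with an SE of 0.32 (adjusted p = 0.000468). With slide as a block the 6 calls stood, with -1.65 for Cp and 4.44 for Saa3. Within the 3 slides, each with 1 or 2 arrays per group, every one of the 6 kept its direction, with Saa3 between 4.43 and 4.60 and Cp between -2.25 and -1.29.

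Other acute phase genes moved upward in M1 as well. Of 20 tested from a list of 30, 11 rose and 1 fell, with a median change of 1.79 against -0.12 over all genes. The serpins Serpina3g and Serpina3f rose by 8.16 and 7.89, complement factor Cfb by 6.47 and the interleukin-1 receptor antagonist Il1rn by 5.02, each with an adjusted p of 6.67e-10 or less. The pentraxin Apcs, at -1.04 (adjusted p = 0.0969), and complement C4b, at 0.53 (adjusted p = 0.16), did not pass. Of 29 inducers, receptors and transcription factors tested, 16 rose and 8 fell. Of the inducing cytokines Il1b rose by 8.31, while Il6 and Il1a, not well above background on any M0 naive array, were at least 978-fold and 528-fold higher in M1 (adjusted p = 6.32e-13 and 8.47e-10). Socs3, the feedback inhibitor of STAT3 signalling, rose by 6.09. The glucocorticoid receptor gene Nr3c1 (0.62, adjusted p = 0.0721) and the interleukin-1 receptor chain Il1rap (-0.94, adjusted p = 0.0912) did not pass.

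Of 25 receptors, ligands and iron partners of the proteins tested, 12 were lower and 3 higher in M1. Fpr1, a formyl peptide receptor, rose by 7.04. The transferrin gene Trf fell by 5.51, and C1qc and C1qa, subunits of the C1q that Ptx3 binds, fell by 4.00 and 4.76 on the log2 scale. Tlr2, a receptor reported for serum amyloid A, was at 0.41 (adjusted p = 0.143) and the transferrin receptor gene Tfrc at -0.52 (adjusted p = 0.247), and neither passed. The neutrophil marker list, whose cells also make Lcn2 and Hp, had 2 of 13 markers higher and 9 lower in M1, and its summed level was 307 to 590 in M1 and 326 to 875 in M0 naive. Of the macrophage markers 1 of 9 was higher and 4 lower, with sums of 1005 to 1127 in M1. Their part in the M1 changes was not tested.

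**Figure D2:**
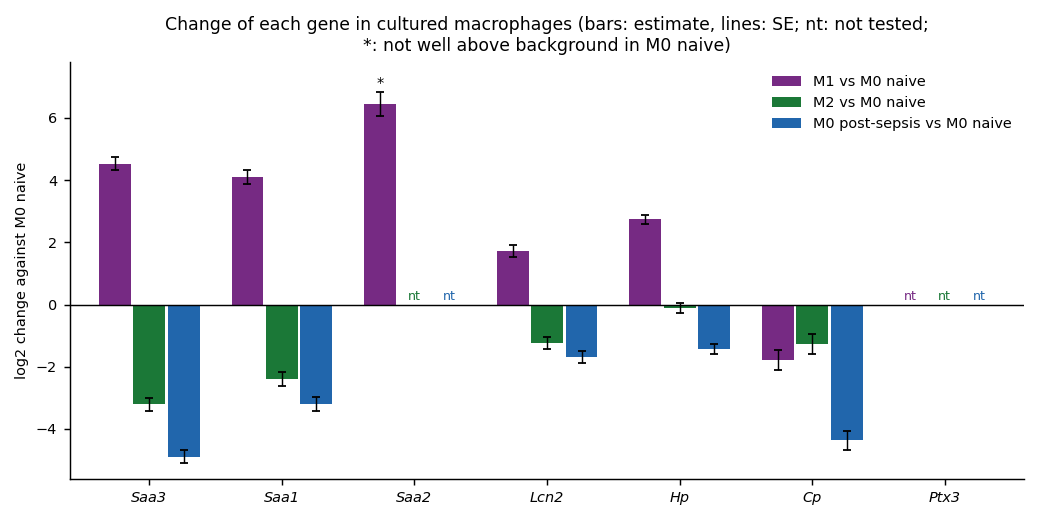
Log2 change of each acute phase gene in M1, M2 and M0 post-sepsis against the same 4 M0 naive arrays. Bars are limma estimates and lines their SE, with n = 4 arrays per group. Saa3 ranges from 4.53 in M1 to -4.89 in M0 post-sepsis, and Cp is below 0 in all 3 comparisons. The starred Saa2 bar is a fitted value against arrays not well above background, for which only a bound is given, at least 22.1-fold in the main processing.

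In M2 Saa3, Saa1 and Lcn2 fell, where they rose in M1, and Cp fell as it did in M1. Of the 5 tested, 4 fell and none rose, where 7.04% of the 29717 genes tested fell and 4.88% rose. Saa3 was at 2.32, 2.09, 2.25 and 2.07 in M2, against the M0 naive levels above, none of which was below 5.07. It fell by 3.21 on the log2 scale with an SE of 0.20 (n = 4 each, adjusted p = 3.36e-08). Saa1 was at 1.57, 1.64, 1.81 and 1.83 in M2, also below each M0 naive array, and fell by 2.40 with an SE of 0.22 (adjusted p = 1.82e-06).

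Lcn2, at 1.01, 0.98, 1.07 and 0.62 in M2, fell by 1.23 with an SE of 0.19 (adjusted p = 0.000465). Cp, at -0.62, -0.84, -0.12 and -0.38 in M2, fell by 1.26 with an SE of 0.32 (adjusted p = 0.0169). That Cp call was lost without M0 naive replicate 1 (-1.16, adjusted p = 0.053) and without M2 replicate 2 (-1.14, adjusted p = 0.0525). Hp stood apart from the other genes. Its 4 M2 levels, 0.76, 0.76, 0.74 and 0.79, lay inside the range of M0 naive, and the change was -0.11 ± 0.15 (adjusted p = 0.742). Saa2 and Ptx3 were well above background on none of the 4 M2 arrays. Within slides Saa3 differed by -3.26 to -3.12 and Cp by -1.70 to -0.71. The M1, M2 and M0 post-sepsis comparisons share the 4 M0 naive arrays and are not independent of each other.

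Macrophage markers summed to 1067 to 1237 in M2 and 1225 to 1410 in M0 naive, with 4 of 9 lower and none higher in M2. Neutrophil markers summed to 981 to 1459 in M2 and 326 to 875 in M0 naive, although 6 of 13 were lower and 2 higher, and Chil3 alone averaged 9.57 in M2 against 2.54 in M0 naive. Their part in the M2 changes was not tested.

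The wider acute phase list was mixed in M2, with 2 of 18 tested higher and 4 lower and a median of -0.05 against -0.07 over all genes. The endotoxin co-receptor gene Cd14 and Cfb fell, by changes of -4.02 and -3.62, while Serpina3g rose by 3.79 and Serpina3f by 2.99, all with an adjusted p of 4.76e-06 or less. C4b (-0.65, adjusted p = 0.121) and Itih4 (-0.71, adjusted p = 0.278) did not pass. Of 27 inducers, receptors and transcription factors tested, 12 fell and 3 rose. Il1b fell by 3.43, Tnf by 2.10 and the NF-kappaB inhibitor gene Nfkbia by 1.24, whereas the interleukin-1 receptor gene Il1r1, not well above background on any M0 naive array, was at least 6.24-fold higher in M2 (adjusted p = 2.64e-08). Nfkb2 (-0.70, adjusted p = 0.0506) and Stat3 (-0.67, adjusted p = 0.0719) did not pass. Of 25 receptors and partners tested, 7 fell and 4 rose, with Fcgr1, Tlr2 and Fpr1 lower by changes of -3.55, -3.31 and -2.86 and Tfrc higher by 4.63. C1qa (-0.71, adjusted p = 0.0766) and C1qc (-0.50, adjusted p = 0.0771) did not pass.

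Set directly against M2, M1 was higher for 5 of the 6 genes tested and lower for none, where 15.6% of the 28716 genes tested were higher and 15.4% lower. The differences were 7.74 ± 0.20 for Saa3, 6.49 ± 0.21 for Saa1, 2.95 ± 0.19 for Lcn2 and 2.85 ± 0.15 for Hp (SE, n = 4 each), with adjusted p-values of 9.67e-09 or less. Saa2 was at least 23.6-fold higher in M1 than in M2 in the main processing (adjusted p = 2.11e-08). Over the alternatives tried its log2 difference ranged from 2.75 to 5.82, and the lowest lies below this bound. Here too Saa2 entered the test only through M1. Cp, at -0.51 ± 0.32, did not pass (adjusted p = 0.275), and its arrays overlapped. Within slides Saa3 differed by 7.56 to 7.79 and Cp by -0.58 to -0.34. In the wider acute phase list 13 of 19 tested were higher in M1 and none lower, led by Cfb at 10.10 and Cd14 at 6.39, with a median difference of 2.57 against -0.03 over all genes.

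The post-sepsis marrow cultures gave the lowest mean levels of the cultured groups for Saa3, Saa1, Lcn2, Hp and Cp. This comparison asks whether macrophages differentiated from marrow 14 days after sepsis induction differ from those of naive mice. All 5 genes that could be tested were lower in M0 post-sepsis and none was higher, where 5.91% of the 29669 genes tested were lower and 5.98% higher. Saa2 was well above background on none of the 8 arrays and Ptx3 on 1 of 4 in each group.

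Saa3 was at 0.17, 0.77, 0.16 and 0.91 in M0 post-sepsis, against 5.58, 5.27, 5.07 and 5.67 in M0 naive. The gap of over 4 units between the groups was far wider than the spread within either. Saa3 fell by 4.89 on the log2 scale with an SE of 0.20 (29.8-fold, n = 4 each, adjusted p = 2.8e-09). Saa1 was at 1.00, 0.72, 1.49 and 0.48 in M0 post-sepsis, against 4.35, 4.11, 3.67 and 4.30 in M0 naive. It fell by 3.19 with an SE of 0.22 (9.12-fold, adjusted p = 1.84e-07).

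Cp was at -3.55, -4.01, -2.51 and -4.32 in M0 post-sepsis, against 1.08, 0.83, 0.38 and 0.79 in M0 naive. It was well above background on 3 of the 4 post-sepsis arrays and fell by 4.37 with an SE of 0.32 (20.6-fold, adjusted p = 4.06e-07). With normexp background correction the Cp change was smaller, at -2.82. Lcn2 was at 0.43, 0.68, 0.71 and 0.01 in M0 post-sepsis, against 2.09, 2.26, 1.92 and 2.33 in M0 naive, and fell by 1.69 with an SE of 0.19 (adjusted p = 2.63e-05). Hp was at -0.63, -0.45, -0.36 and -0.81 in M0 post-sepsis, against 1.07, 0.86, 0.62 and 0.92 in M0 naive, and fell by 1.43 with an SE of 0.15 (adjusted p = 1.39e-05). No array of one group overlapped the other for any of the 5 genes, and how often this holds over all genes was not counted. The Hp call was lost when all 23 arrays shared the estimate of spread (-1.43, adjusted p = 0.161).

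Both slides that held both groups showed the same direction. Saa3 differed by -5.20 on slide 2, with 2 arrays of each group, and by -4.74 on slide 3, with 2 M0 post-sepsis arrays and 1 M0 naive array. Cp differed by -3.62 on slide 2 and -5.25 on slide 3. Macrophage markers moved with these genes: 6 of 9 were lower in M0 post-sepsis and none higher, with a median change of -1.27 against 0.05 over all genes. Their summed level was 541 to 906 in M0 post-sepsis and 1225 to 1410 in M0 naive. Among neutrophil markers 7 of 13 were lower and 1 higher, and the summed level was 191 to 429 in M0 post-sepsis and 326 to 875 in M0 naive. Their part in the result was not tested.

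The wider acute phase list did not move as one in M0 post-sepsis. Of 18 tested, 5 were lower and 3 higher, with a median of -0.05 against 0.05 over all genes. Complement C3 fell by 4.26, Cfb by 4.88 and Serpina3g by 1.55, whereas the metallothionein gene Mt2 rose by 1.54 (adjusted p = 0.000353 or less for each). Cfb was well above background on 2 of the 4 post-sepsis arrays. The endotoxin binding protein gene Lbp (-0.60, adjusted p = 0.439) did not pass.

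Of 26 inducers, receptors and transcription factors tested, 9 were lower and 1 higher in M0 post-sepsis. Il1b, the NF-kappaB subunit gene Relb, Socs3 and Cebpa, which encodes a C/EBP factor, fell by changes of -3.05, -1.58, -1.41 and -1.64, each with an adjusted p of 0.000767 or less. Il6st, the shared receptor chain of the interleukin-6 family, was at -0.83 (adjusted p = 0.0528) and Nfkb2 at -0.63 (adjusted p = 0.0836). Of 25 receptors and partners tested, 10 were lower and 2 higher. Fpr1 and Fpr2, receptors to which serum amyloid A binding has been described, fell by 2.27 and 2.95, Fcgr1 by 1.53 and Trf by 1.48. Cd36 (-0.84, adjusted p = 0.087) and the iron exporter gene Slc40a1 (-0.56, adjusted p = 0.145) did not pass.

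**Figure D3:**
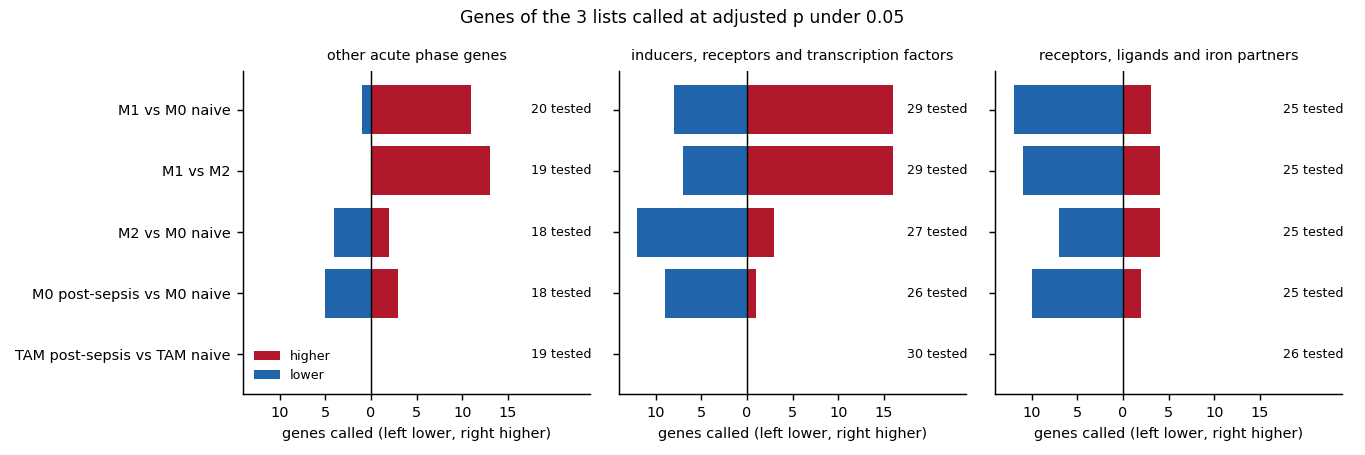
Number of genes of 3 lists called lower (left of 0) and higher (right of 0) at an adjusted p under 0.05 in 5 comparisons, with the number tested beside each bar. In M1 against M0 naive 11 of 20 other acute phase genes were higher, and in TAM none of the 3 lists had a call.

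In TAM none of the 7 genes passed the test between post-sepsis and naive mice, and 0% of the 28974 genes tested did. No gene of the array passed with this limma fit on 7 arrays, although 10983 genes had an unadjusted p under 0.05. With slide as a block 8.11% of genes were higher and 26.8% lower in TAM post-sepsis, and still none of the 7 genes was called.

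The serum amyloid A genes varied widely between TAM arrays of one group. Saa3 was at 3.00, -1.31, 4.41 and 5.09 in TAM post-sepsis, against 0.02, 4.13 and 1.65 in TAM naive. The lowest and the highest of the 7 arrays were both from post-sepsis mice, 6.40 units or 84.2-fold apart, and the mean difference was 0.86 ± 1.61 (SE, n = 4 and 3, adjusted p = 0.695). Saa1 was at 2.18, 0.07, 3.19 and 4.00 in TAM post-sepsis, against 0.72, 3.71 and 1.20 in TAM naive, with a difference of 0.48 ± 1.05 (adjusted p = 0.737). Saa2 was at -4.22, -4.65, -1.92 and -3.39 in TAM post-sepsis, against -2.62, -1.72 and -2.97 in TAM naive. Post-sepsis replicate 2 was not well above background for Saa2, the groups overlapped, and the difference was -1.11 ± 0.65 (adjusted p = 0.231).

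Ptx3 was at 0.31, -3.04, 2.57 and 2.60 in TAM post-sepsis, against -0.46, 1.80 and 0.31 in TAM naive, a 49.9-fold range with a mean difference of 0.06 ± 1.37 (adjusted p = 0.976). Hp was at 2.06, -0.35, 3.03 and 3.72 in TAM post-sepsis, against 1.23, 3.41 and 0.63 in TAM naive, with a difference of 0.36 ± 1.04 (adjusted p = 0.803). These ranges cover the whole of the other group for both genes. Lcn2 was at -0.40, -0.99, 0.35 and 0.34 in TAM post-sepsis, against -0.05, 1.84 and -0.57 in TAM naive (-0.58 ± 0.61, adjusted p = 0.481). Cp was at -0.06, -0.30, 1.65 and 0.62 in TAM post-sepsis, against -0.66, 0.54 and -0.10 in TAM naive (0.55 ± 0.51, adjusted p = 0.426). Cp, Lcn2 and Saa2 varied least over the 7 arrays, by 4.95-fold, 7.11-fold and 7.6-fold.

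The arrays that were low for one gene were low for others. Post-sepsis replicate 2 was the lowest of the 7 TAM arrays for 6 of the 7 genes, all but Cp. For how many of all genes it was the lowest was not counted. Without it Saa3 was 2.23 higher in TAM post-sepsis (adjusted p = 0.102) and Ptx3 1.28 higher (adjusted p = 0.197), and again none of the 7 was called. Without that array 9853 genes of the whole array passed. Within slides the sign of the difference was not constant. Saa3 differed by -0.09 on slide 1, 2.76 on slide 2 and -1.33 on slide 3, with at most 2 arrays of a group per slide. On slide 2, with 1 array of each group, all 7 genes were higher in TAM post-sepsis. The share of all genes higher on that slide was not counted.

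Cell type markers varied with these levels. The fibroblast sum was 359, 230, 1129 and 856 in TAM post-sepsis replicates 1 to 4, against 219, 905 and 301 in TAM naive replicates 1, 3 and 4. The 3 arrays with the highest sums were also the 3 highest for Saa3, Saa1, Hp, Ptx3, Lcn2 and Cp, but not for Saa2. How often this holds over all genes was not counted. The macrophage sum was 64.6, 196, 66.3 and 56.5 in TAM post-sepsis, against 368, 193 and 203 in TAM naive. Itgam, the highest of its markers in both groups, averaged 5.55 in TAM post-sepsis and 7.72 in TAM naive. In the fit without a slide block the median change of the 9 macrophage markers was 0.25, against -0.05 over all genes, so the sum does not describe the list as a whole. The neutrophil sum was 231, 602, 208 and 246 in TAM post-sepsis, against 1033, 877 and 531 in TAM naive. Csf3r, the highest of its markers in both groups, averaged 7.70 in TAM post-sepsis and 9.25 in TAM naive, but also 7.81 in M0 post-sepsis and 8.52 in M1. The T cell sum had a median of 8.95 in TAM post-sepsis and 11.3 in TAM naive. Its highest markers in both groups were Cd4 (2.06 and 1.52) and Cd3e (1.72 and 2.68), which were also well above background on all cultured arrays. Cd3d averaged -3.58 in TAM post-sepsis and -0.39 in TAM naive. The B cell sum was 0.631 to 3.88 in TAM post-sepsis and 5.24 to 37.4 in TAM naive. With slide as a block 5 of 6 T cell, 5 of 5 B cell, 6 of 12 neutrophil and 2 of 9 macrophage markers tested were lower in TAM post-sepsis, and 1 neutrophil marker was higher. The part of these cells in the levels of the 7 genes was not tested.

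**Figure D4:**
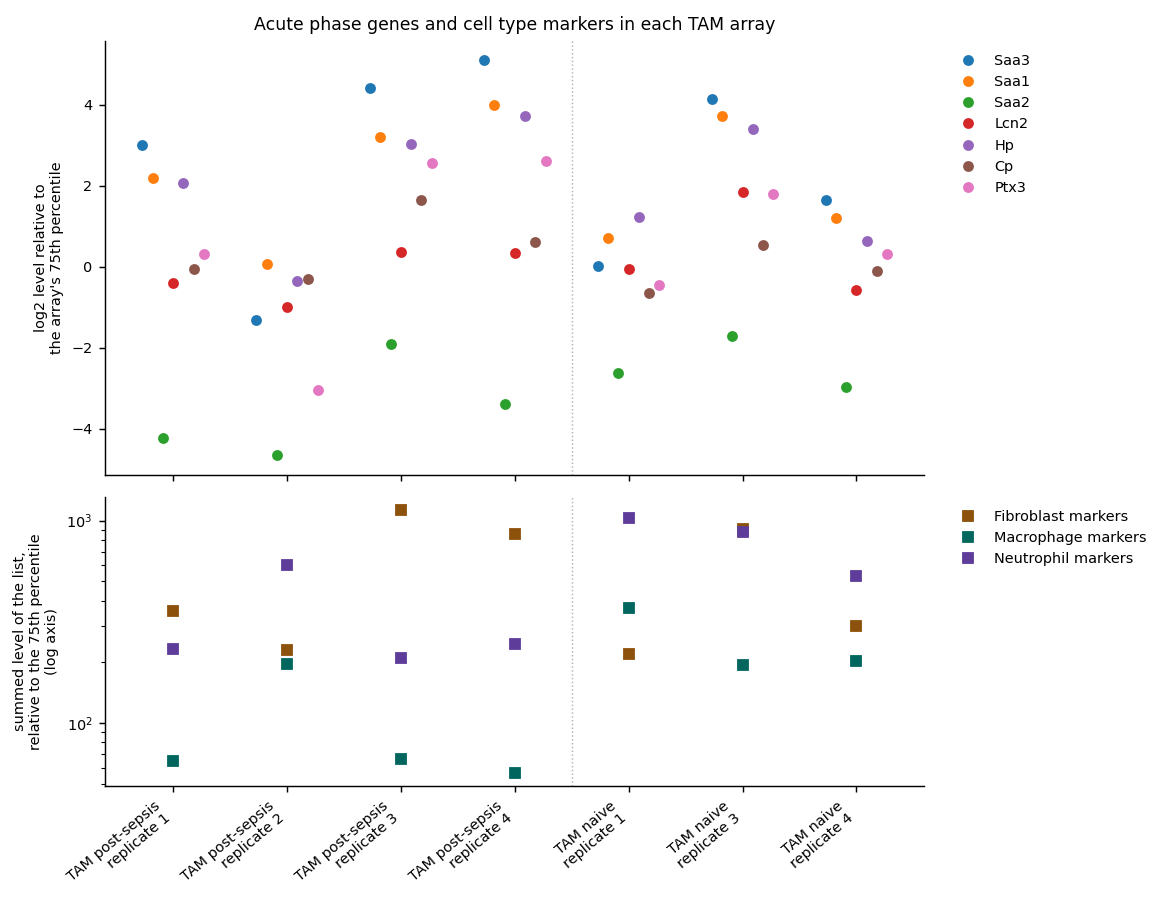
Upper panel, log2 level of the 7 acute phase genes on each TAM array, relative to the array's 75th percentile. Lower panel, summed level of fibroblast, macrophage and neutrophil markers on the same arrays, on a log axis. Post-sepsis replicate 2 has the lowest Saa3, at -1.31, with a fibroblast sum of 230, and post-sepsis replicate 4 the highest, at 5.09, with 856.

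With slide as a block, where 26.8% of all genes were lower and 8.11% higher in TAM post-sepsis, the 3 lists had no larger share of lower genes. Of 19 other acute phase genes tested 4 were lower in TAM post-sepsis and none higher: Il1rn (-1.83), Cd14 (-1.75), Serpina1a (-1.12) and Itih4 (-0.92). Among 30 inducers, receptors and transcription factors 4 were lower and 1 higher, with Il1b at -2.06 and the interleukin-10 receptor gene Il10ra at -1.59. Of 26 receptors and partners 4 were lower and 3 higher, with Fpr1 at -2.41 and Fpr2 at -2.51. Without the block none of these passed, and Il6ra (-1.12), Tlr4 (0.64), Fpr2 (-2.26) and Tfrc (0.98) each had an adjusted p of 0.113.

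Whether the post-sepsis difference itself differed between TAM and M0 was tested on all 23 arrays as the change in TAM minus the change in M0. It was positive for 3 of the 7 genes and negative for none, where 3.6% of the 31766 genes tested were positive and 2.35% negative. For Cp it was 4.92 ± 0.58 (SE, adjusted p = 3.16e-05), with a change of 0.55 in TAM beside -4.37 in M0. For Saa3 it was 5.76 ± 1.37 (adjusted p = 0.0175) and for Saa1 3.67 ± 0.91 (adjusted p = 0.0219). TAM and the less variable cultures shared the estimate of spread here. These SEs are therefore below the 1.61 for Saa3 and 1.05 for Saa1 of the TAM change fitted on TAM arrays alone. Hp (1.79, adjusted p = 0.189) and Lcn2 (1.11, adjusted p = 0.191) did not pass. Saa2 and Ptx3 were not called either, but Saa2 was well above background on none of the 8 M0 arrays and Ptx3 on 2 of them, so no difference is given for these genes.

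On slides 2 and 3, which held all 4 groups, the difference was 7.96 and 3.41 for Saa3, 4.74 and 3.11 for Saa1, and 5.36 and 5.61 for Cp. Of the macrophage markers 4 of 9 had a positive difference and none a negative one, with a median of 1.62. Of the T cell markers 4 of 6 had a negative difference (median -2.30), of the B cell markers 1 of 5 (median -2.27), and of the 13 neutrophil markers 1 was positive and 1 negative. Their part in the result was not tested.

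The Cp difference passed in each alternative tried that gave a test, with an adjusted p of at most 0.00197. Those of Saa3 and Saa1 did not pass when the 4 groups were fitted alone (adjusted p = 0.102 and 0.115) or without TAM naive replicate 1 (4.80 and 3.09, adjusted p = 0.0702 and 0.0846). The Saa1 difference was also not called without TAM post-sepsis replicate 3 (3.39, adjusted p = 0.0518). Over all genes the median of this difference was -0.32, and -0.04 with quantile normalization, where 72.3% of calls were positive against 60.5% here. In the other acute phase list Cfb (5.63) and C3 (3.90) were positive and Mt2 (-1.46) and Il1rn (-2.49) negative, with 2 of 20 positive and 3 negative in all.

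**Figure D5:**
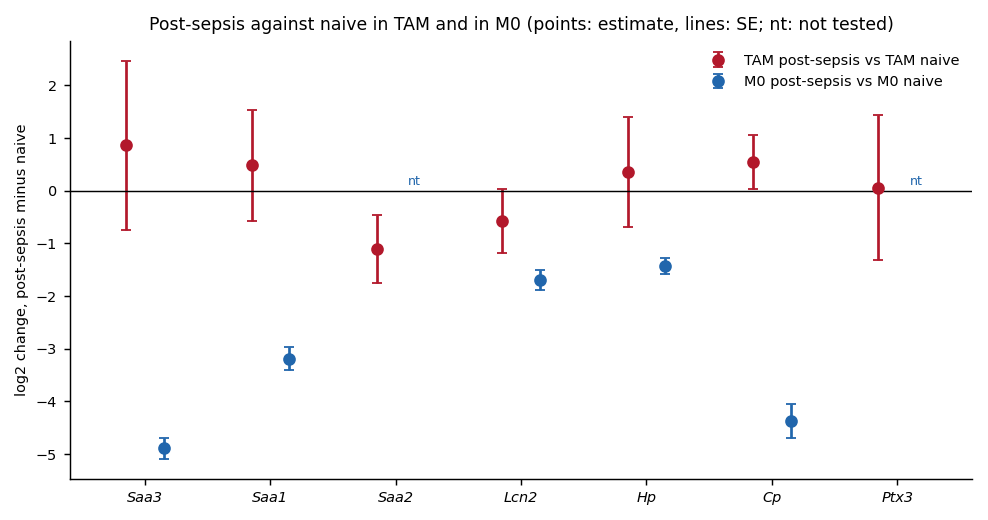
Log2 change of each acute phase gene between post-sepsis and naive mice, in TAM (n = 4 and 3 arrays) and in M0 cultures (n = 4 each). Points are limma estimates and lines their SE. In M0 the 5 tested genes lie between -4.89 and -1.43, whereas in TAM all 7 lie between -1.11 and 0.86 with wider errors.

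Compared with marrow cultures from mice of the same condition, TAM had higher levels of Ptx3 and Saa2. In TAM naive against M0 naive Ptx3 was 5.72 ± 1.12 higher (n = 3 and 4, adjusted p = 0.00032), with all 3 TAM arrays and only 1 of 4 M0 arrays well above background, so that its size is uncertain too. Saa2 was at least 4.21-fold higher in TAM naive in the main processing (adjusted p = 2.89e-06). Over the alternatives tried its log2 difference ranged from 1.28 to 4.75, and the lowest lies below this bound. Ptx3 and Saa2 entered this test only through the TAM arrays, so the direction of their calls was largely set beforehand. Saa3 differed by -3.46 ± 1.01, Saa1 by -2.23 ± 0.67 and Lcn2 by -1.74 ± 0.41, so that 2 genes were higher and 3 lower, where 15.1% of the 30611 genes tested were higher and 20.5% lower. Without TAM naive replicate 1 the Saa3 and Saa1 calls were lost (adjusted p = 0.0925 and 0.101), and without TAM naive replicate 4 the Saa1 call (adjusted p = 0.0637). Hp (0.88 ± 0.65, adjusted p = 0.306) and Cp (-0.85 ± 0.42, adjusted p = 0.13) did not pass. Within slides 1, 2 and 3 Saa3 differed by -1.14, -3.72 and -5.56. With the 75th percentile taken over probes detected on all arrays, 58.4% of all calls were higher in TAM naive, against 42.5% here.

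In TAM post-sepsis against M0 post-sepsis 4 of the 7 genes were higher and none lower, where 16.5% of the 29899 genes tested were higher and 27.7% lower. Ptx3 was 5.44 ± 1.04 higher (n = 4 each, adjusted p = 0.000257), but it was well above background on only 1 of the 4 M0 post-sepsis arrays, against all 4 TAM arrays, so the size is uncertain. Cp was higher by 4.07 ± 0.39 (adjusted p = 3.37e-08) and Hp 2.68 ± 0.60 (adjusted p = 0.00129). Saa2, measured on 3 of 4 TAM arrays and no M0 array, was at least 1.56-fold higher (adjusted p = 0.000627), and with normexp background correction its call was lost (0.24, adjusted p = 0.434). Ptx3 and Saa2 again entered the test only through the TAM arrays, so the direction of their calls was largely set beforehand. Saa3 (2.29 ± 0.93, adjusted p = 0.051), Saa1 (1.44 ± 0.62, adjusted p = 0.0646) and Lcn2 (-0.63 ± 0.38, adjusted p = 0.176) did not pass. Without TAM post-sepsis replicate 2 Saa3 and Saa1 passed, at 3.66 and 2.20 (adjusted p = 6.71e-05 and 0.00157), as they did with normexp background correction (adjusted p = 0.0253 and 0.0461). Within slides 2 and 3 Saa3 differed by 4.24 and -2.14, Hp by 3.52 and 0.28, and Cp by 4.68 and 3.86. Over all genes the median of this comparison was -0.36, and -0.22 with the percentile over probes detected on all arrays, where 51.1% of calls were higher in TAM post-sepsis against 37.3% here.

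Both TAM comparisons set a mixture against cultures. All 9 fibroblast markers were higher in TAM in each, with medians of 8.18 in the naive and 8.66 in the post-sepsis comparison, and 8 of 9 macrophage markers were lower in each. Their part in the Ptx3, Saa2, Cp and Hp differences was not tested. Of 20 other acute phase genes tested, 10 were higher and 1 lower in TAM naive against M0 naive, with C4b at 5.27. In TAM post-sepsis against M0 post-sepsis 10 were higher and 2 lower, with C4b at 5.86 and Cfb at 6.23. Il6 was at least 235-fold higher in TAM naive than in M0 naive, and at least 167-fold higher in TAM post-sepsis than in M0 post-sepsis.

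Each gene's 6 groups were ordered by mean level, and each step to the next group was tested. The order came from the same means that were tested, so the steps only describe it. M1 ranked first for 5 genes. For Saa3 the order was M1 (9.92 ± 0.10), M0 naive (5.40 ± 0.28), TAM post-sepsis (2.80 ± 2.87), M2 (2.18 ± 0.12), TAM naive (1.93 ± 2.07) and M0 post-sepsis (0.50 ± 0.39, SD, n = 4 or 3). The steps from M1 to M0 naive and from M0 naive to TAM post-sepsis passed (adjusted p = 0.000736 and 0.0304), and the 3 below them did not.

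Saa1 had its first 2 steps past the threshold as well, with means of 8.20 ± 0.13 in M1, 4.11 ± 0.31 in M0 naive and 2.36 ± 1.70 in TAM post-sepsis (SD). Lcn2 was highest in M1 (3.88 ± 0.22) and lowest in TAM post-sepsis (-0.17 ± 0.65), and the steps from M1 to M0 naive and from M0 naive to M2 passed (adjusted p = 0.00129 and 0.0419). Saa2 was highest in M1 (-0.05 ± 0.23), and the steps from M1 to TAM naive (-2.44 ± 0.65) and from TAM post-sepsis (-3.55 ± 1.20) to M2, where it was not well above background, passed (adjusted p = 0.000954 and 0.00156). For Hp no neighbouring step passed, from 3.61 ± 0.09 in M1 to -0.56 ± 0.20 in M0 post-sepsis. TAM and cultures shared the estimate of spread in this fit. The Hp step from M2 to M0 post-sepsis was 1.32 with an SE of 0.60 (adjusted p = 0.143). The arrays lay at 0.74 to 0.79 in M2 and -0.81 to -0.36 in M0 post-sepsis. Cp had a different order, highest in M0 naive (0.77 ± 0.29), and only its last step passed, from M1 to M0 post-sepsis (-3.60 ± 0.79), a difference of 2.60 (adjusted p = 2.16e-05). For Ptx3 both TAM groups came first, at 0.61 ± 2.66 in TAM post-sepsis and 0.55 ± 1.15 in TAM naive, and the step from TAM naive to M0 post-sepsis, with Ptx3 well above background on 1 of 4 arrays, passed (adjusted p = 0.000781).

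Across the 23 arrays Saa3 and Saa1 followed each other closely, with a Pearson correlation of 0.986, and both followed Lcn2 (0.903 and 0.921). Saa2 followed Hp most closely among the 7 genes (0.818). The Saa2 values rest largely on dim signal, since it was well above background on no M0 post-sepsis, M0 naive or M2 array. For Ptx3 the values lay between -0.474 with Lcn2 and 0.391 with Cp. They rest largely on dim signal, since Ptx3 was well above background on 1 M0 post-sepsis array, 1 M0 naive array and no M1 or M2 array. Within TAM, where Ptx3 was measured, its lowest and highest arrays were also those of Saa3, Saa1 and Hp. These values are descriptions over 6 groups whose means differ, and the arrays share the groups, the slides and the scaling.

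The genes most like each member over the 23 arrays were taken as the 3 with the highest Pearson correlation. For Saa3 these were Ifi211 (0.985), Ifit1 (0.943) and H2-Q5 (0.943), and the same 3 came first for Saa1. Lcn2 was most like Ifih1 (0.963), Ifi209 (0.960) and Bcl3 (0.960), Hp most like Lims2 (0.932), Cfb (0.906) and Wdr92 (0.905), and Saa2 most like Htr7 (0.963), Sdcbp2 (0.962) and Upp1 (0.958). Ptx3 was most like Svep1 (0.979), Scara3 (0.974) and Clec3b (0.971). For Saa2 and Ptx3 these correlations include the dim arrays named above. Cp had the weakest neighbours, Eva1b (0.912), Htra1 (0.827) and 2610029K11Rik (0.827).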

How the data were processed

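RNA from 24 mouse samples was hybridised to 1-colour Agilent arrays, and 23 arrays in 6 groups were analysed. Per the file headers, the deposited processed intensity values were background-subtracted and detrended within each array by Feature Extraction 10.7.3.1 (12.5 in the submitters' processing notes) and not scaled between arrays. The deposited value table was not used, because its columns matched the scanner values of other samples.

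Control spots and 82 non-uniform spots were left out, spots of a probe were averaged, log2 values were centred on each array's 75th percentile, and the probe with the highest mean signal stood for a gene. A gene was fitted if a compared group had at least 3 arrays on which it was detected well above background. The fit was made with limma 3.58.1 in R 4.3.3, with Benjamini-Hochberg adjustment over all genes kept and a threshold of 0.05. The TAM comparison used its 7 arrays, marrow comparisons 16 arrays, and those across both sources, with the order of levels, 23. Likeness was the Pearson correlation over 23 arrays. In each comparison the text names all 7 genes and, per list, up to 4 genes with the smallest adjusted p that passed and up to 2 that did not, and some genes this rule names are not reported here.

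Symbols came from accessions for 27656 of 55681 probes, from the file's symbol for 3401 and from synonyms for 321, against RefSeq. The 23254 probes without a symbol each counted as a gene in the numbers of genes tested and called. The members and lists were chosen with earlier results of these data known. The number of arrays limits the precision. The fit was tested on simulated data. Alternatives were quantile scaling, a percentile over detected probes, normexp with an offset of 50, other filters and probe rules, slide and replicate blocks, other sets of arrays and leaving out each array.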

Additional observations from a re-analysis of the deposited data

Results flagged for a closer look

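The difference between TAM and M0 in the post-sepsis change passed for 3 genes by the interaction test in limma. It was 4.92 for Cp (adjusted p = 3.16e-05), 5.76 for Saa3 (adjusted p = 0.0175) and 3.67 for Saa1 (adjusted p = 0.0219), on the log2 scale and as the change in TAM minus that in M0. TAM and the less variable cultures shared the estimate of spread in this test. With the 4 groups fitted alone Saa3 and Saa1 did not pass (adjusted p = 0.102 and 0.115). The array that the submitters excluded, TAM naive replicate 2, had an Hp level of 4.00, above the 0.63 to 3.41 of the other 3 TAM naive arrays. Of 35 sets of 4 arrays, 1 for each gene and each group but TAM naive, none held an outlier by Dixon's test. With 4 arrays this test flags only extreme values. Saa3 in TAM post-sepsis replicate 2, at -1.31 beside 3.00, 4.41 and 5.09, was not flagged.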

How the results depend on the processing

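Over 1105 recalculated values of single genes, 1003 kept their direction and their side of the threshold, 12 lost the call, 14 gained one, 76 either changed sign without a call or, within single slides, moved by more than the spread between replicates, and 0 called values reversed. In TAM post-sepsis against TAM naive no gene passed, but 10103 did with slide as a block, 3769 with all 23 arrays in the fit, and 0 to 9853 when 1 array was left out, the highest without TAM post-sepsis replicate 2. With the replicate number as a block 9915 genes passed, in a fit where TAM post-sepsis replicate 2 has no partner, among them 4 of the 7 members: Saa3 at 2.23, Saa1 at 1.25, Hp at 1.18 and Ptx3 at 1.28. No label says that equal numbers pair samples, so the block is no part of the design. Deviations from the group means correlated from -0.576 to 0.697 between same-numbered arrays. Differently numbered arrays were not set beside them, so these values cannot decide whether the numbers pair samples. For M0 post-sepsis 3528 genes passed, against 5591 with the percentile over detected probes and 1636 with the compared groups alone. For M2 against M0 naive 3542 passed, against 5563 with that percentile, and for TAM post-sepsis against M0 post-sepsis 13201, against 7449 with the groups alone. For the difference of post-sepsis changes 1891 passed, against 3084 with quantile scaling, 3084 with the percentile over detected probes, 765 with TAM naive replicate 2 included, 519 with the groups alone and 953 to 5909 when 1 array was left out, the lowest without TAM naive replicate 1 and the highest without TAM post-sepsis replicate 2. Of the 7 members 3 passed there, 1 with the groups alone and 1 to 4 when 1 array was left out, with 1 left without TAM naive replicate 1. In TAM naive against M0 naive 5 members passed, and 3 to 5 when 1 array was left out, with 3 left without TAM naive replicate 1. The cause of these shifts was not tested, except that fits on the compared groups alone hold fewer arrays. Of 9 motif matches 5 remained on the sense strand alone, and of the 21 most alike genes 6 were also among the first 3 by Spearman's rho and 3 by group means. A block for scan time was not run, because scan times equalled slides. Signal near background limits Saa2 and Ptx3 in marrow cultures.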
